A study of Homo sapiens with 16 samples.

Results

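The genes described here are 10 immediate-early genes: the AP-1 subunit genes FOS, FOSB, JUN, JUNB and JUND, the transcription factor genes EGR1 and ATF3, and IER2, IER3 and DUSP1. All 10 symbols were found among the 60623 genes listed for each library, of which 20747 had a read in at least 1 library. The genes were chosen by membership of a list of known immediate-early genes that was drawn up once their expression values in co-cultured and mono-cultured Caco-2 cells had been seen in these libraries, so that difference is described below without a test.

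Immediate-early genes are transcribed within minutes of a growth factor, a stress or a change of medium, because the factors that switch them on are already present in the resting cell. Serum response factor with its ternary complex partners and CREB/ATF proteins, activated through MAP kinases, bind their promoters, and the transcripts are short-lived. FOS and FOSB proteins pair with JUN, JUNB or JUND to form AP-1, while DUSP1 removes phosphate from the MAP kinases and so feeds back on the signal.

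Caco-2 is a colorectal cancer line that stands in for the gut epithelium, and HepG2 is a liver cancer line that stands in for hepatocytes. Each line was grown in a microfluidic chip either alone (mono-culture) or in a closed circuit with the other line (co-culture), and each culture was given either no free fatty acids (control) or palmitic acid mixed with oleic acid, 1 mM free fatty acids in total (FFA). These 8 groups had 2 libraries each, 16 in all, of polyA+ RNA read as PCR-amplified cDNA on a Nanopore sequencer. All groups shared a serum-free starvation before the treatment, a medium with albumin in place of serum, and detachment with trypsin before lysis. The labels put the harvest after 1 day of treatment, and the study describes sequencing both then and after a longer treatment. Each organ is modelled by a single cancer-derived line, and the labels do not say from which chips the replicates came, so the p-values measure the spread between these libraries only.

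The promoters of FOS and FOSB are shown because these genes had the largest Caco-2 co-culture differences of the 10, and those of JUN and EGR1 because they carry other arrangements of the same kinds of site. Each line gives the 125 bases before the RefSeq transcription start in GRCh38.p14, read 5′ to 3′ on the strand of the gene. Capitals mark matches on either strand: TGACG, the core of sites for CREB/ATF proteins, the longer AP-1 and CREB type element TGACNTCA, the promoter element TATAAA for the general transcription machinery, and the CArG box, to which serum response factor binds. FOS lies on the plus strand at chr14:75278703-75278827, FOSB on the plus strand at chr19:45467871-45467995, JUN on the minus strand at chr1:58784048-58784172 and EGR1 on the plus strand at chr5:138465354-138465478.
FOS: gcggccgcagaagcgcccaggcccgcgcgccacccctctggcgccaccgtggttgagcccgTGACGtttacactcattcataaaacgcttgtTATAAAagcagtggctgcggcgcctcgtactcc
FOSB: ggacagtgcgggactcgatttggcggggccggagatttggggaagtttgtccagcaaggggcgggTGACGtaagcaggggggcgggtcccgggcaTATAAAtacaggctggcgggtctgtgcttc
JUN: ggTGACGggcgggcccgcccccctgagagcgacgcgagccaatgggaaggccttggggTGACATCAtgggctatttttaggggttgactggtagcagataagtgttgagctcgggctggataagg
EGR1: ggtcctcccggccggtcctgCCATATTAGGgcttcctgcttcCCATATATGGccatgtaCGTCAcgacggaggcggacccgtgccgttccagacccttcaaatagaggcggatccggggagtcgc

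FOS and FOSB had the same order of letters, a TGACG first and a TATAAA nearer the start. TGACG began 64 bases upstream of the start in FOS and 60 in FOSB, and TATAAA began 33 bases upstream in FOS and 30 in FOSB. EGR1 had 2 CArG boxes, 105 and 83 bases upstream, and JUN had TGACATCA 67 bases upstream. All of the 10 genes but IER3 had a promoter in the table, ATF3 with a pair of starts. In the 250 bases upstream, TGACG was found in 8 of the 9 on either strand, all but ATF3, against 21.2% of the 35116 promoters. TATAAA was found in 5 of the 9, namely FOS, FOSB, JUNB, DUSP1 and ATF3, against 10.7% of all promoters. Within these 250 bases the CArG box was found in EGR1 only, against 1.16%, and bases further upstream were not searched. TGACNTCA was found in JUN, JUND, ATF3 and DUSP1, against 6.87%. In JUND and DUSP1 it was TGACGTCA, which contains TGACG on both strands and was held by 1.65% of promoters. The AP-1 consensus TGACTCA was in none of the 9, against 4.20%. These are matches of letters, and binding was not measured.

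In GRCh38, as annotated by GENCODE 44, 4 of the 10 genes lie on chromosome 19. FOSB, at chr19:45467995-45475179 on the plus strand, overlaps ERCC1 on the opposite strand, JUNB at chr19:12791486-12793315 overlaps HOOK2, and IER3 at chr6:30743199-30744548 overlaps its antisense gene IER3-AS1. The use of strand in the counting is not given in the sources used here, so reads of such pairs could be exchanged. ERCC1, a DNA repair gene, had 43 reads in Caco-2 mono-culture and 50 in Caco-2 co-culture. Its mono-culture level ranged from 17.3 to 20.9 CPM, the unit of all levels below, in which read numbers are divided by library depth, and its co-culture level from 8.48 to 21.6 CPM.

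The libraries held 49634 to 1657430 reads, so a single read stood for 0.603 to 20.1 CPM. Caco-2 libraries held 353871 to 974655 reads. Both HepG2 co-culture FFA libraries stood apart with 147096 and 49634 reads, in which 3 reads, the limit that a count of 0 allows, correspond to 20.4 and 60.4 CPM. These limits and the counting intervals below cover counting error only. Of the 80 values of the 10 genes in each line, 11 in Caco-2 and 48 in HepG2 rested on fewer than 3 reads, and 3 and 19 were at 0. The labels' extraction text names myoblasts, but 7 of 11 myoblast marker genes had no read in any library and the highest had 7 reads. Of 15 hepatocyte-type genes, 11 were higher in every HepG2 than in every Caco-2 library, and VTN was higher in every Caco-2 library. Of 12 intestinal genes only CDH17, PHGR1 and CEACAM5 were higher in every Caco-2 library, and 1 had no read in any library. Between the lines 9 of the 12 were tested by limma. In mono-culture control 2 were called lower in HepG2 and 1 higher, and averaged over the conditions 7 lower and 0 higher. Of all 17544 genes tested, 1013 were lower and 838 higher in mono-culture control, and 3132 lower and 2190 higher averaged. CDH17 had no read in HepG2.

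**Figure D1:**
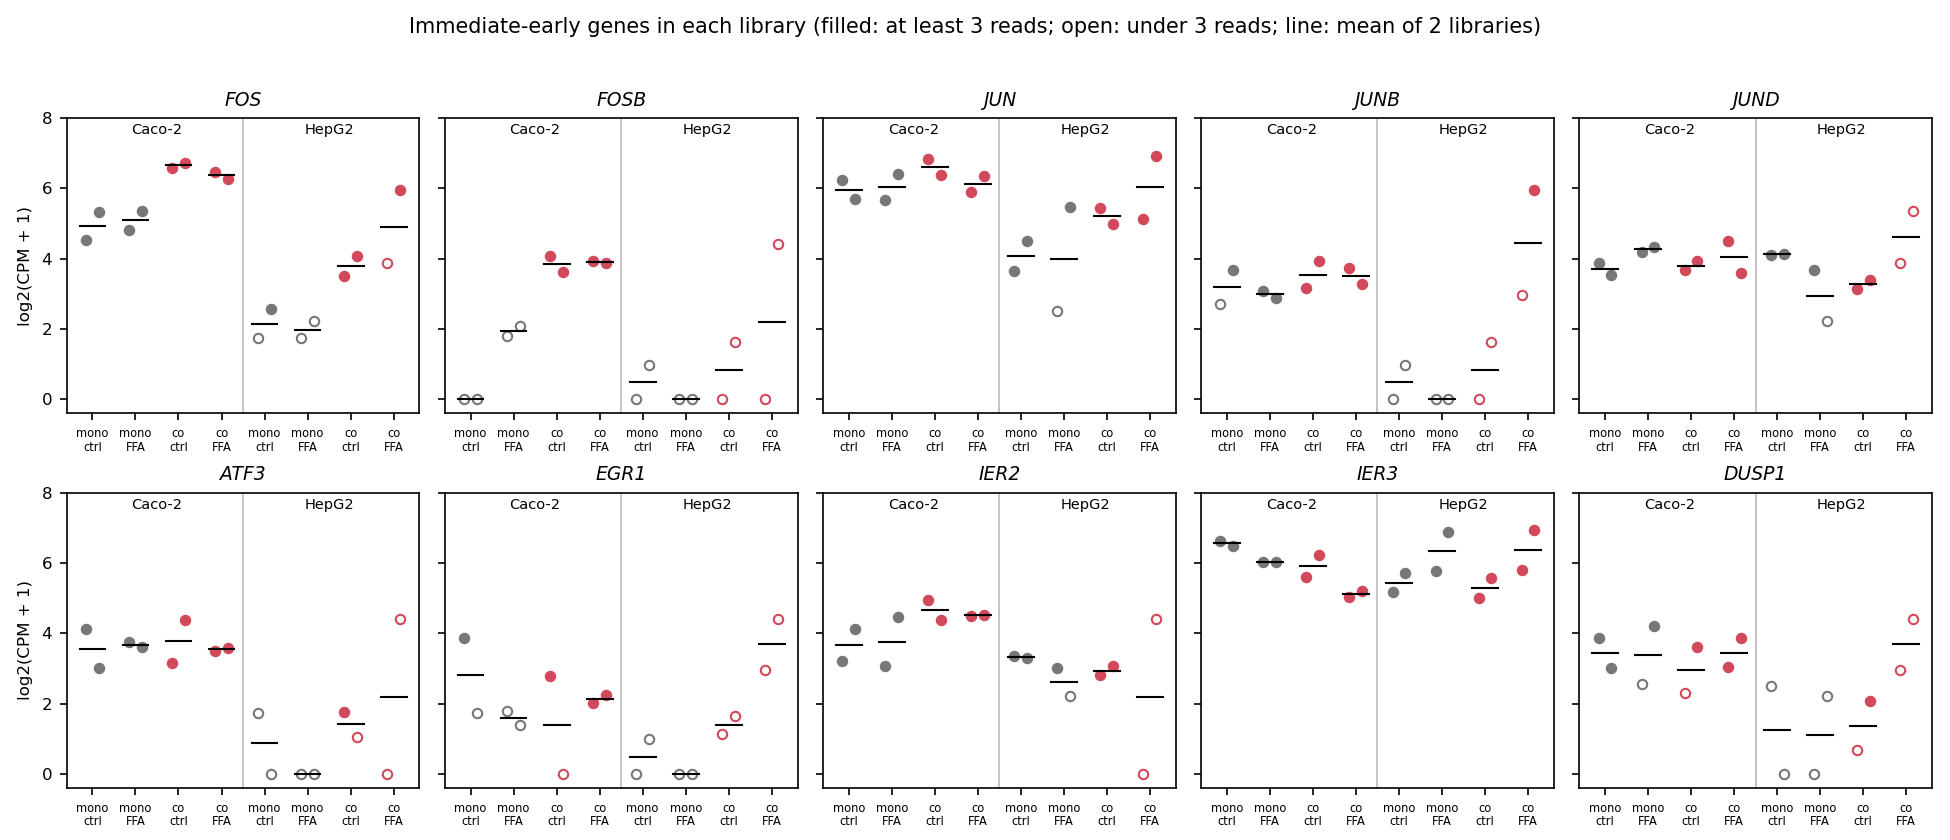
Level of each immediate-early gene in every library, as log2(CPM + 1), by cell line, culture and treatment. Grey points are mono-culture and red points co-culture libraries, filled where at least 3 reads lay behind the value and open where fewer did, and the short line is the mean of the 2 libraries of a group. FOS and FOSB in Caco-2 cells lie higher in all 4 co-culture than in all 4 mono-culture libraries.

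In Caco-2 cells, FOS and FOSB were the members whose level was higher in every co-culture library than in every mono-culture library, with and without FFA. FOS read 95.1 and 105 CPM in the co-culture control libraries, 88.2 and 76.4 CPM in co-culture FFA, 21.9 and 38.8 CPM in mono-culture control, and 27.2 and 40.2 CPM in mono-culture FFA. The 4 co-culture libraries thus lay at 76.4 CPM or more and the 4 mono-culture libraries at 40.2 CPM or less. Behind these values stood 233 reads in co-culture and 77 in mono-culture, a pooled ratio of 2.57 with an exact 95% counting interval of 1.98 to 3.37. The counting intervals in Caco-2, here and below, are no test, since the genes were chosen with these values seen. Replicate libraries also differed by more than counting error, with a chi-square per degree of freedom of 1.37 to 2.25 over the Caco-2 groups. Pooled ratios, here and below, weight each library by its depth, so control and FFA libraries do not count equally in them. The log2(CPM + 1) difference of FOS was 1.51 (SE 0.22) averaged over treatment, 1.74 (SE 0.31) without FFA and 1.29 (SE 0.31) with FFA.

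FOSB, whose protein takes the place of FOS in AP-1, was close to undetected in mono-cultured Caco-2 cells. It had 8 and 4 reads in the co-culture control libraries (15.9 and 11.3 CPM) and 14 and 11 reads in the co-culture FFA libraries (14.4 and 13.5 CPM). It had no read in either mono-culture control library and 1 and 2 reads in the mono-culture FFA libraries (2.48 and 3.22 CPM). Co-culture was again above mono-culture in every library, although each mono-culture value lay under the limit of 3 reads. Without FFA, 12 reads in co-culture faced 0 in 1216382 mono-culture reads. The observed co-culture level was 5.67-fold the level that the limit of 3 reads allows over the pooled mono-culture group. The counting error of the 12 reads is not included in that value. Over both treatments the pooled levels were 14.0 and 1.34 CPM, a ratio of 10.5 with a counting interval of 3.31 to 53.0. The log2(CPM + 1) difference averaged over treatment was 2.91 (SE 0.55), but with so few reads it ran from 1.58 to 4.67 over the pseudocounts and tools tried.

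Higher in all 4 co-culture than in all 4 mono-culture libraries were thus 2 of the 10 genes, against 4.25% of the 15454 genes tested in Caco-2. None of the 10 was lower throughout, against 1.68%. With only the control libraries, 4 were higher in both co-culture libraries (FOS, FOSB, JUN and IER2), against 22.0% of genes, and IER3 was lower, against 9.60%. With only the FFA libraries, 5 were higher (FOS, FOSB, JUNB, EGR1 and IER2), against 20.0%, and IER3 and ATF3 were lower, against 14.6%. The median averaged log2 difference was 0.20 over the 10 genes and 0.14 over all genes tested.

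The JUN family, the partners of FOS proteins, differed less between the cultures. JUN read 113 and 82.0 CPM in the co-culture controls, 58.5 and 81.3 CPM in co-culture FFA, 73.9 and 50.5 CPM in mono-culture control, and 49.5 and 83.6 CPM in mono-culture FFA. Without FFA both co-culture libraries lay above both mono-culture libraries, by 0.65 (SE 0.31) on the log2(CPM + 1) scale, and with FFA they overlapped. JUNB lay between 7.93 and 14.1 CPM in co-culture and between 5.48 and 11.7 CPM in mono-culture. With FFA its co-culture libraries lay above both mono-culture ones, by 0.52 (SE 0.61). JUND, the member of the family that resting cells usually express, ranged from 10.6 to 21.6 CPM over the 8 libraries, and its averaged difference was −0.06 (SE 0.34).

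IER2, a nuclear protein gene induced together with FOS, read 29.7 and 19.8 CPM in the co-culture controls and 21.6 and 22.2 CPM in co-culture FFA. In mono-culture it read 8.22 and 16.5 CPM in control and 7.42 and 20.9 CPM with FFA. The co-culture libraries were above the mono-culture libraries of the same treatment, but the highest mono-culture value exceeded the lowest co-culture value. The log2(CPM + 1) difference was 0.99 (SE 0.53) without FFA and 0.75 (SE 0.53) with FFA. The latter came to 0.06 without mono-culture FFA replicate 1 and to 1.44 without mono-culture FFA replicate 2.

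IER3, which encodes a small stress-response protein that affects survival, went the opposite way. It read 98.5 and 88.1 CPM in mono-culture control and 64.3 CPM in both mono-culture FFA libraries, against 47.5 and 73.5 CPM in the co-culture controls and 31.8 and 35.7 CPM in co-culture FFA. Within each treatment both co-culture libraries lay below both mono-culture libraries. The pooled ratio was 0.527, with a counting interval of 0.412 to 0.672. The FFA libraries, where IER3 read lower, were deeper in co-culture (974655 and 811671 reads) than in mono-culture (404378 and 622280 reads), so this ratio mixes culture with treatment. The log2(CPM + 1) difference was −0.65 (SE 0.27) without FFA, −0.91 (SE 0.27) with FFA and −0.78 (SE 0.19) averaged over treatment. Co-culture control replicate 2 decided the overlap between the treatments. Without it, IER3 was lower in all co-culture than in all mono-culture libraries, and the difference without FFA was −0.96.

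The 3 other genes showed no common shift. EGR1, a zinc finger factor, had 0 to 5 reads in each Caco-2 library and from 0 to 13.7 CPM, with the highest value in mono-culture control replicate 1. ATF3, a stress-induced factor of the CREB/ATF family, ranged from 7.05 to 19.8 CPM, and in the FFA libraries its co-culture values lay just below the mono-culture ones (10.3 and 11.1 against 12.4 and 11.2 CPM). DUSP1 ranged from 3.96 to 17.7 CPM and its cultures overlapped. The averaged log2 differences were −0.44 (SE 0.76) for EGR1, 0.03 (SE 0.41) for ATF3 and −0.21 (SE 0.51) for DUSP1.

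The make-up of the immediate-early pool shifted accordingly. FOS took 27.6 to 32.8% of the reads of the 10 genes in the Caco-2 co-culture libraries and 8.25 to 16.7% in mono-culture. IER3 took 11.8 to 21.0% in co-culture and 24.0 to 37.9% in mono-culture. Their summed level was 269 to 350 CPM in co-culture and 195 to 268 CPM in mono-culture, so that the ranges lay next to each other. In bulk RNA, fewer cells carrying a transcript and less transcript in each cell cannot be told apart.

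Markers of both lines moved with culture in Caco-2 cells. The summed level of the 15 hepatocyte-type genes was 10745 to 12372 CPM in Caco-2 mono-culture, 13580 to 14541 CPM in Caco-2 co-culture and 51818 to 89071 CPM in HepG2 cells. Of the 15, AFP, TTR and APOA1 were called higher in Caco-2 co-culture by limma, and 14 had a difference above 0, with a median of 0.52. Over all 15454 genes tested, 49 were called higher and 9207 had a difference above 0, with a median of 0.14. The lists were chosen with earlier results of these data known, so the calls of marker genes here are descriptions. The summed level of the 12 intestinal genes was 186 to 240 CPM in Caco-2 mono-culture and 281 to 346 CPM in Caco-2 co-culture. In HepG2 it was 94.6 to 216 CPM in mono-culture and 156 to 181 CPM in co-culture, so the sum did not separate the lines in mono-culture. Of the 9 tested in Caco-2, TFF3 was called higher in co-culture, at 0.82, and the median was 0.62. Their part in the FOS and FOSB difference was not tested.

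**Figure D2:**
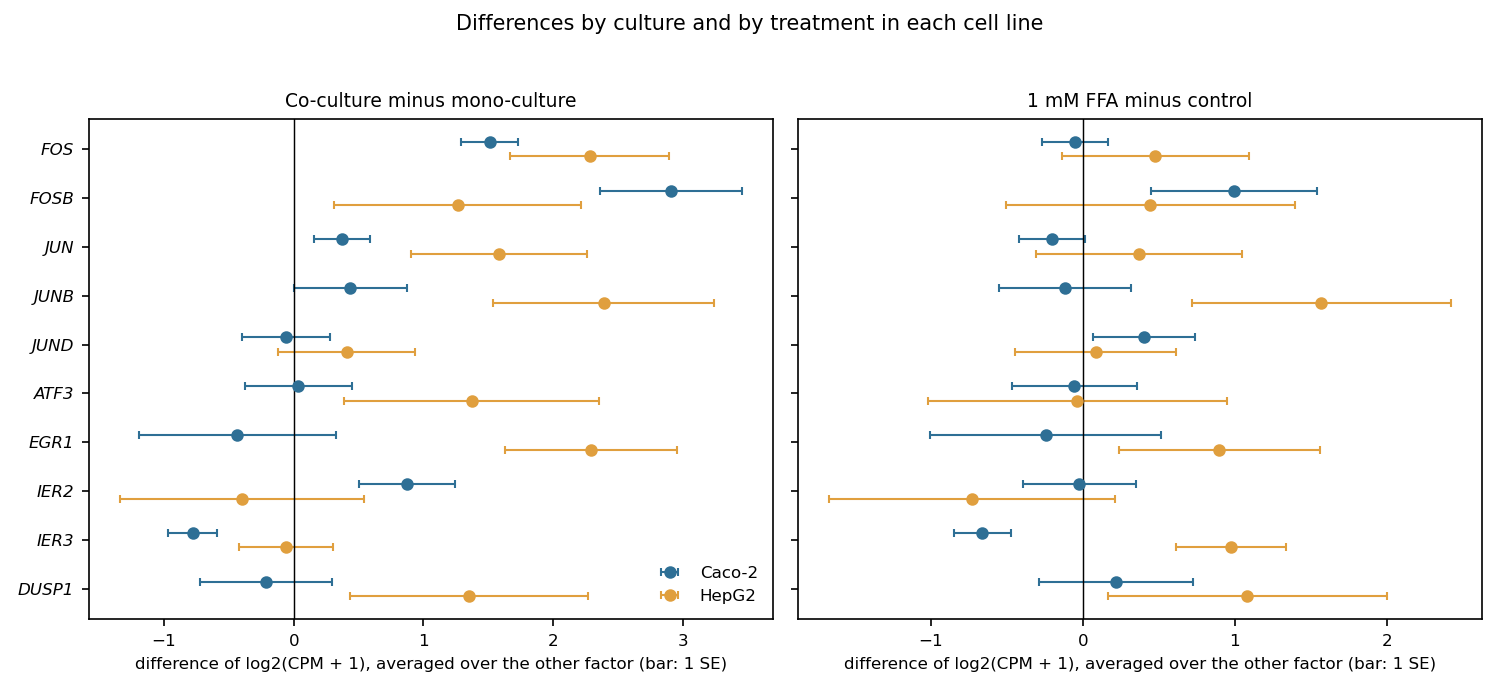
Difference of each immediate-early gene on the log2(CPM + 1) scale, co-culture minus mono-culture and FFA minus control, for each cell line, with bars of ±1 SE from limma. FOS and FOSB stand at 1.51 and 2.91 for co-culture in Caco-2 cells, while for FFA in that line 7 of the 10 genes lie within 1 SE of 0.

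FFA changed none of the 10 genes in Caco-2 cells by limma at an adjusted p under 0.05, in mono-culture, in co-culture or averaged. edgeR, which kept 5 of the 10, and DESeq2 also called 0 in each. At an unadjusted p under 0.05, limma had 1 gene in each comparison. The FFA difference of IER3 was −0.66 (SE 0.19) averaged over culture (adjusted p = 0.829, limma) and −0.79 (SE 0.27) in co-culture (adjusted p = 0.862, limma). The averaged value's adjusted p ran from 0.332 to 1 over the other settings and from 0.0531 to 0.384 when 1 library was left out. Over all genes, 0.00647% were called in mono-culture and 0% in co-culture and averaged, while 1.73% were lower averaged and 2.42% in co-culture at an unadjusted p under 0.05.

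FOSB in mono-culture was the other gene, 1.94 (SE 0.77) higher with FFA on the log2(CPM + 1) scale (adjusted p = 0.838, limma), on 1 and 2 reads against 0 and 0, and 3.73% of all genes were higher at an unadjusted p under 0.05. Both values lie under the limit of 3 reads, so no fold is given. In co-culture, FOS, JUN and IER3 were lower in both FFA libraries than in both control libraries, with FOS at −0.28 and JUN at −0.47, against 14.9% of all genes. In mono-culture IER3 was lower in both, against 10.3%. The test of whether the FFA effect depended on the culture called 0 of the 10 and 0% of all genes by limma, and 0 of the 10 by edgeR and DESeq2, with 0 at an unadjusted p under 0.05. The SE of these interactions was large, and the values ran from −1.88 for FOSB to 1.95 for EGR1.

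In HepG2 cells, FOS and EGR1 read higher in every co-culture than in every mono-culture library, but no immediate-early gene was called. FOS read 10.3 and 15.9 CPM in the co-culture controls, 13.6 and 60.4 CPM in co-culture FFA, 2.32 and 4.89 CPM in mono-culture control, and 2.36 and 3.64 CPM in mono-culture FFA. Behind these were 17 and 15, 2 and 3, 1 and 5, and 1 and 1 reads. The pooled ratio was 3.56, with a counting interval of 1.63 to 8.84. In HepG2 the co-culture pool came mostly from the control libraries, with 1657430 and 945974 reads against 147096 and 49634 with FFA. On the log2(CPM + 1) scale FOS was 2.28 (SE 0.62) higher in co-culture averaged over treatment (adjusted p = 0.557, limma) and 2.92 (SE 0.87) higher with FFA (adjusted p = 0.217, limma). Without FFA, where the shallowest of the 4 libraries held 430815 reads, the difference was 1.64 (SE 0.87).

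JUN read 42.2 and 30.7 CPM in the HepG2 co-culture controls, 34.0 and 121 CPM in co-culture FFA, 11.6 and 21.5 CPM in mono-culture control, and 4.71 and 43.7 CPM in mono-culture FFA. The cultures did not overlap without FFA and overlapped with it. Without FFA, FOS, JUN and EGR1 were higher in both co-culture libraries, against 20.5% of all genes, and JUND and IER2 were lower, against 12.4%. The pooled ratio was 2.06, with a counting interval of 1.43 to 3.03, and the averaged log2 difference was 1.58 (SE 0.68; adjusted p = 0.642, limma). EGR1 had 2, 2, 1 and 1 reads in the co-culture libraries and 0, 1, 0 and 0 in mono-culture. JUNB had 0, 2, 1 and 3 reads in co-culture and 0, 1, 0 and 0 in mono-culture. The pooled ratio of both was 4.61, with a counting interval of 0.560 to 212 that includes 1, and ATF3 had the same pooled counts of 6 and 1 reads.

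Against mono-culture in HepG2, limma called 0 of the 10 averaged over treatment and 0% of all 14430 genes. edgeR and DESeq2 also called 0, but not every member could be called there. The edgeR filter left out FOS, EGR1 and JUNB, and DESeq2 gave no adjusted p for FOS, JUN, EGR1 and JUNB. At an unadjusted p under 0.05 limma had FOS, JUN, EGR1 and JUNB higher, where 3.87% of all genes were. EGR1, JUNB and FOSB reached the minimum level for testing in co-culture alone, each with mono-culture means of 0.49 CPM in control and 0 CPM with FFA. They were thus tested because they were high there, and their values and the counts that hold them are given as descriptions. FOS and EGR1 were higher in all 4 co-culture libraries, against 1.12% of all genes. The averaged log2 differences were 2.29 (SE 0.66) for EGR1 and 2.39 (SE 0.85) for JUNB. The median over all genes tested was −0.09, and −0.20 under TMM or median-ratio scaling, and the direction of these 4 genes stayed.

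The 2 shallow HepG2 co-culture FFA libraries set much of this. With replicate 1 of that group left out, the lone remaining library, the shallowest of all with 49634 reads, was assumed to vary like the other groups. The averaged comparison then called FOS at 2.80 (adjusted p = 0.0187, limma), where 2.70% of genes were called higher. The averaged difference was 2.65 for EGR1 and 3.13 for JUNB, on 1 and 3 reads in the remaining library and after entering the test in the way described above. With that library alone as the FFA group, 5 members passed for co-culture with FFA, where 6.11% of genes did, and 2 for FFA in co-culture, where 7.01% did. With both left out, the control libraries alone gave 0 calls by limma and FOS at 1.64 (SE 0.72; adjusted p = 1, limma). Over the other settings the averaged FOS adjusted p ran from 0.154 to 0.700. The FOS difference was above 0 under every setting, between 1.60 and 2.80.

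IER3 was the member with the most reads in HepG2 mono-culture and took 42.9 to 67.6% of the members' reads there. It read 34.8 and 51.8 CPM in mono-culture control, 54.2 and 116 CPM in mono-culture FFA, 31.4 and 46.5 CPM in the co-culture controls, and 54.4 and 121 CPM in co-culture FFA. Every FFA library was above every control library, against 4.16% of all genes. The margin was small, with a lowest FFA value of 54.2 CPM and a highest control value of 51.8 CPM. The co-culture FFA values stood on 8 and 6 reads, and 1 read in replicate 1 of that group stood for 6.80 CPM. The averaged log2 difference was 0.98 (SE 0.36; adjusted p = 0.296, limma), and the adjusted p ran from 0.154 to 0.491 over the other settings and from 0.0556 to 0.540 when 1 library was left out. FFA thus called 0 of the 10 in HepG2 by limma. IER3 was the 1 gene at an unadjusted p under 0.05 in the averaged comparison. There 6.76% of all genes were higher at that level and 0.0554% were called higher. edgeR and DESeq2 also called 0, but DESeq2 gave no adjusted p for IER3 averaged or for EGR1 and JUNB in co-culture. The edgeR filter left out EGR1 and JUNB. TMM scaling moved the median FFA difference of all genes from −0.07 to −0.38 and median-ratio scaling to −0.25, and the lowest value of the IER3 difference over the settings was 0.49.

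With FFA in co-culture alone, EGR1 was 2.29 (SE 0.94) higher (adjusted p = 0.296, limma) and JUNB 3.63 (SE 1.21) higher (adjusted p = 0.252, limma). At an unadjusted p under 0.05, 6.71% of all genes were higher there. The FFA side of both rested on 1 read in replicate 1 and, in replicate 2, on 1 read of EGR1 and 3 of JUNB. The interaction of FFA and culture called 0 by limma and DESeq2, and 0 by edgeR, whose filter left out JUND and JUNB. It had JUND at 2.53 (SE 1.06; adjusted p = 0.702, limma) and JUNB at 4.13 (SE 1.71; adjusted p = 0.700, limma), where 2.16% of genes were higher at an unadjusted p under 0.05. JUND read 16.2 and 16.6 CPM in mono-culture control, 11.8 and 3.64 CPM in mono-culture FFA, 7.84 and 9.52 CPM in the co-culture controls and 13.6 and 40.3 CPM in co-culture FFA. The highest of these values stood on 2 reads.

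IER3 thus read lower with FFA in Caco-2 and higher with FFA in HepG2 cells. The difference between these averaged effects was 1.64 (SE 0.43) on the log2(CPM + 1) scale (adjusted p = 0.151, limma), where 0.0570% of genes were called higher. On recovered reads the same difference was 1.22 by edgeR (adjusted p = 0.0231) and 1.33 by DESeq2 (adjusted p = 0.0241), while edgeR with a minimum of 10 reads gave 0.93 (adjusted p = 0.115). Without HepG2 co-culture FFA replicate 1 limma gave 1.92, with 6 reads of IER3 in the lone library left of that group. Over all settings the value stayed between 0.93 and 1.92.

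**Figure D3:**
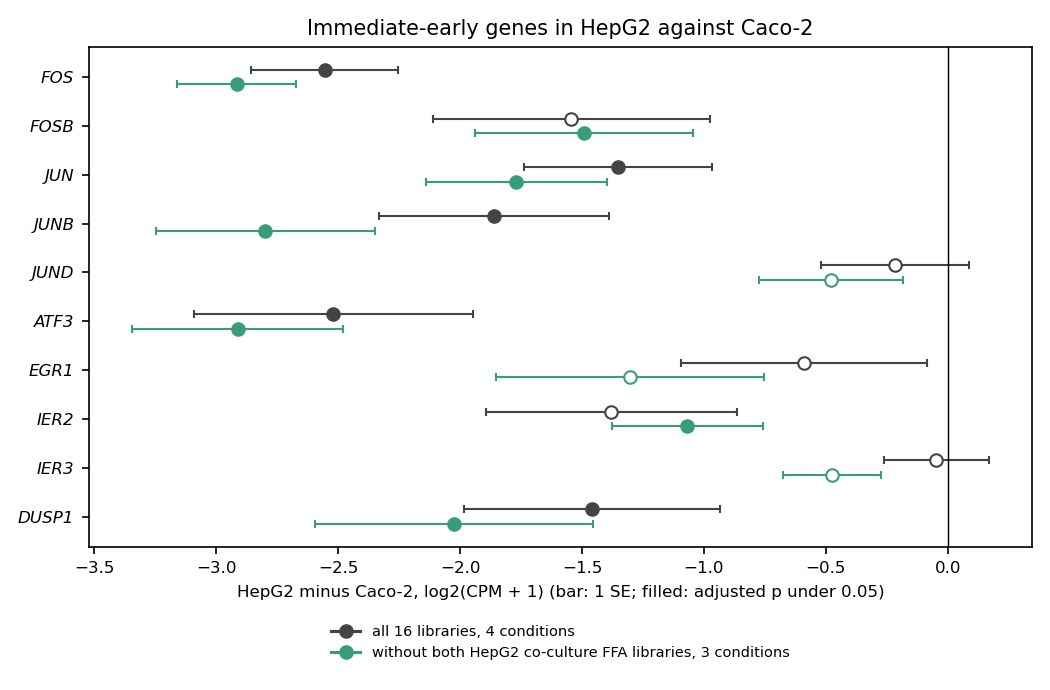
HepG2 minus Caco-2 difference of each immediate-early gene on the log2(CPM + 1) scale, averaged over the conditions, with all 16 libraries and without both HepG2 co-culture FFA libraries. Bars are ±1 SE, and filled points have an adjusted p under 0.05 by limma. FOS, ATF3, JUNB, JUN and DUSP1 are filled in both, all below 0, and EGR1, IER3 and JUND in neither.

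The comparison with the most calls among these genes was between the lines. Averaged over the 4 conditions, 5 of the 10 genes were called lower in HepG2 than in Caco-2 and none higher, against 17.9% of the 17544 genes called lower and 12.5% called higher. This average takes in the Caco-2 co-culture libraries, whose values were known when the genes were chosen. The comparison in mono-culture control, given below, does not. FOS had 310 reads in Caco-2 and 45 in HepG2 cells. Its lowest, median and highest values were 21.9, 58.3 and 105 CPM in Caco-2 and 2.32, 7.57 and 60.4 CPM in HepG2. The ranges overlapped through HepG2 co-culture FFA replicate 2. The log2(CPM + 1) difference of FOS was −2.56 (SE 0.30; adjusted p = 1.52e-05, limma), and it was called under all 29 alternatives.

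ATF3 and JUNB were next. ATF3 ranged from 7.05 over a median of 11.2 to 19.8 CPM in Caco-2, and from 0 over 0.53 to 20.2 CPM in HepG2, where 7 reads were seen in all. Its difference was −2.52 (SE 0.57; adjusted p = 0.00394, limma), called under all 28 alternatives. JUNB ranged from 5.48 over 8.28 to 14.1 CPM in Caco-2 and from 0 over 0.49 to 60.4 CPM in HepG2, also on 7 reads. Its difference was −1.86 (SE 0.47; adjusted p = 0.00819, limma). The highest HepG2 value of both genes came from HepG2 co-culture FFA replicate 2, and the other 7 HepG2 libraries had at most 2.41 CPM of ATF3 and 6.80 CPM of JUNB.

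JUN read 49.5, 77.6 and 113 CPM (lowest, median, highest) in Caco-2 and 4.71, 32.3 and 121 CPM in HepG2, a difference of −1.35 (SE 0.39; adjusted p = 0.0159, limma). DUSP1 read 3.96, 9.25 and 17.7 CPM against 0, 3.4 and 20.2 CPM, a difference of −1.46 (SE 0.53; adjusted p = 0.0499, limma). The JUN call was lost in 9 of 29 alternatives, each of which left out 1 library: any of the 4 Caco-2 co-culture libraries, Caco-2 mono-culture control replicate 1 or FFA replicate 2, either HepG2 co-culture control library, or HepG2 mono-culture control replicate 1. Its value then lay between −1.41 and −1.25 (adjusted p = 0.0535 to 0.0841, limma). The DUSP1 call was lost in 17 of 28 alternatives, with values from −2.43 to −0.74 over the other settings and −1.77 to −1.15 with 1 library left out, so it stood at the edge of the threshold.

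FOSB had a difference of −1.54 (SE 0.57; adjusted p = 0.0543, limma), on 40 reads in Caco-2 and 4 in HepG2, and IER2 one of −1.38 (SE 0.52; adjusted p = 0.0581, limma). Of the 40 FOSB reads in Caco-2, 37 were in co-culture. In mono-culture control the FOSB difference was 0.49 (SE 1.14), on 0 reads in Caco-2 and 1 in HepG2. With edgeR at a minimum of 10 reads the averaged FOSB difference was −1.80 (adjusted p = 0.9998). EGR1, JUND and IER3 had differences of −0.59 (SE 0.50), −0.22 (SE 0.30) and −0.05 (SE 0.22). For IER3 the 95% interval of the difference was −0.51 to 0.42, and the medians were 64.3 CPM in Caco-2 and 53.0 CPM in HepG2. The median over the 10 genes was −1.42, against −0.16 over all genes tested.

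Without both shallow HepG2 co-culture FFA libraries, over the 3 remaining conditions, 7 of the 10 were called lower by limma, against 17.2% of genes. The difference was then −2.92 (SE 0.24) for FOS, −2.91 for ATF3, −2.80 for JUNB, −2.03 for DUSP1, −1.77 for JUN, −1.49 for FOSB and −1.07 for IER2. EGR1 (adjusted p = 0.0843, limma), IER3 (adjusted p = 0.0843, limma) and JUND did not pass. Of the Caco-2 groups in this average, FOSB had 12 reads in co-culture control, 0 in mono-culture control and 3 in mono-culture FFA. On recovered reads edgeR called 3 of the 5 genes it kept, edgeR with at least 10 reads called 6, and DESeq2 called 6. In mono-culture control alone, FOS was the 1 gene called lower, at −2.77 (SE 0.60; adjusted p = 0.00860, limma), against 5.77% of all genes. Without both shallow libraries 4 were called there (FOS, IER3, ATF3 and JUNB), against 8.48%. It was not called without Caco-2 mono-culture control replicate 2 (−2.37, adjusted p = 0.0861, limma) or without HepG2 mono-culture control replicate 1 (−2.36, adjusted p = 0.103, limma). At an unadjusted p under 0.05, 6 were lower there, against 11.5% of all genes: FOS, JUN, EGR1, IER3, ATF3 and JUNB.

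**Figure D4:**
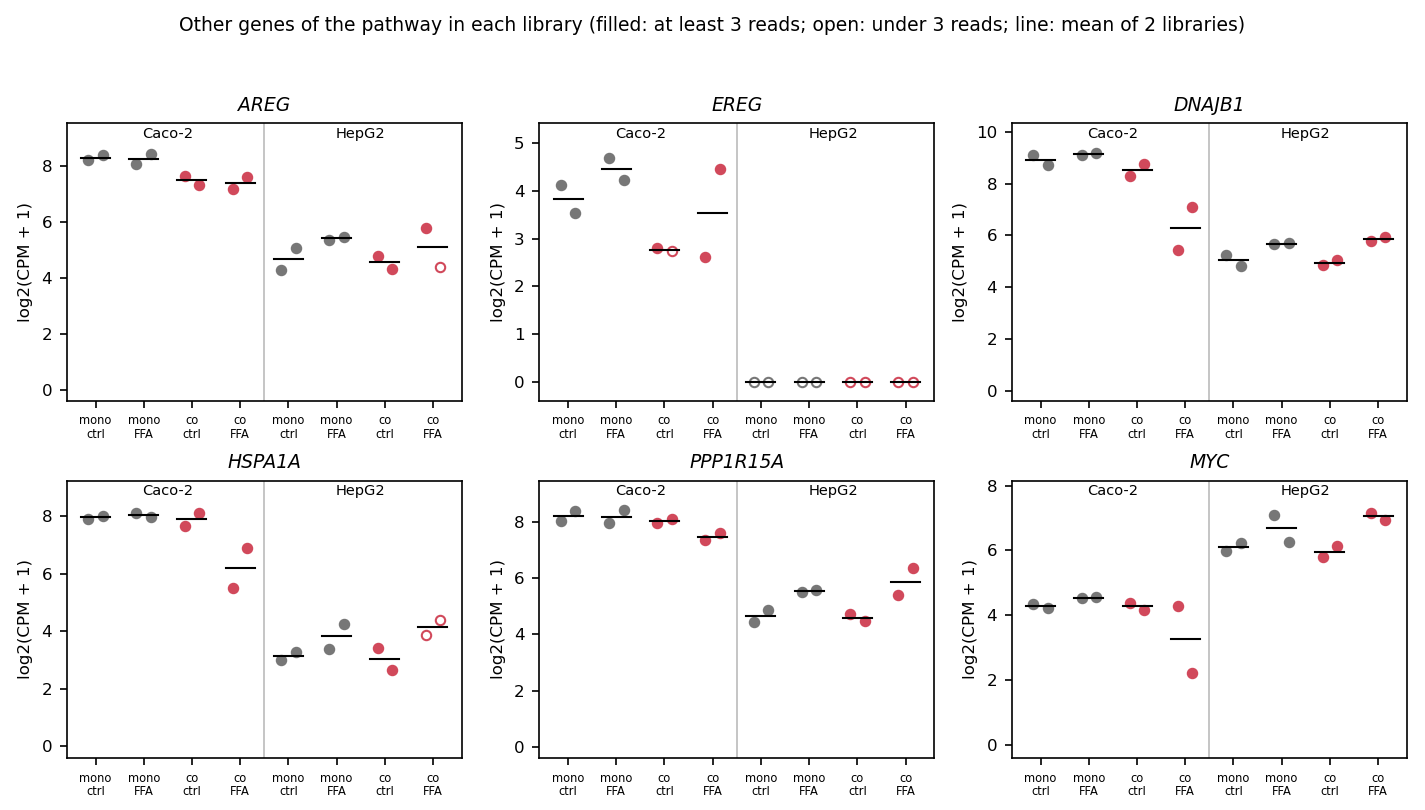
Level in every library, as log2(CPM + 1), of AREG, EREG, DNAJB1, HSPA1A, PPP1R15A and MYC, arranged as in the plot of the immediate-early genes. AREG in Caco-2 cells is lower in every co-culture library, at 143 to 198 CPM, than in every mono-culture library, at 272 to 349 CPM, and MYC is higher in every HepG2 than in every Caco-2 library.

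Among the EGF receptor and ligand genes, AREG differed between the cultures in Caco-2 cells. AREG, which encodes amphiregulin, read 198 and 161 CPM in the co-culture controls, 143 and 193 CPM in co-culture FFA, 296 and 337 CPM in mono-culture control, and 272 and 349 CPM in mono-culture FFA. Every co-culture library was below every mono-culture library, while FOS was above. AREG fell by 0.85 (SE 0.14) on the log2(CPM + 1) scale (adjusted p = 0.0141, limma), in a comparison in which 0.136% of genes were called lower. It was the 1 gene called of the 6 of 9 receptor and ligand genes that were tested. The lists were drawn up with earlier results of these data known, so the Caco-2 co-culture calls of listed genes, here and below, are descriptions.

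Of the 12 heat shock genes, all tested in Caco-2, DNAJB1 was called lower in co-culture averaged over treatment, at −1.63 (SE 0.26; adjusted p = 0.0130, limma). The fall was in the FFA libraries. DNAJB1, an HSP40 co-chaperone, read 42.1 and 137 CPM in co-culture FFA, 311 and 427 CPM in the co-culture controls, 550 and 416 CPM in mono-culture control, and 556 and 574 CPM in mono-culture FFA. With FFA, the co-culture difference was −2.88 (SE 0.36; adjusted p = 0.00393, limma) for DNAJB1, −1.85 (SE 0.32; adjusted p = 0.0434, limma) for HSPA1A, an inducible HSP70, and −0.73 (SE 0.12; adjusted p = 0.0261, limma) for HSP90AA1, where 0.0582% of genes were called lower. FOS was higher in the same libraries. The summed heat shock level was 5169 to 7829 CPM in co-culture and 7263 to 8114 CPM in mono-culture.

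The other early-response lists showed no call in Caco-2 co-culture: 0 of 8 tested genes for other AP-1 dimer subunits, 0 of 13 other early-response factors, 0 of 22 other early-response genes, 0 of 12 MAP kinase feedback genes and 0 of 18 upstream factors and kinases, by limma. At an unadjusted p under 0.05 these lists had 0, 3, 1, 0 and 1 genes higher and 0, 0, 4, 0 and 1 lower, where 8.41% of all genes were higher and 3.37% lower. The smallest p-values belonged to BTG1, an antiproliferative gene, at −1.45 (adjusted p = 0.0905, limma), and to ID1, an inhibitor of helix-loop-helix factors, at 0.69 (adjusted p = 0.0960, limma). FFA called none of the listed genes in Caco-2 by limma, in either culture or averaged. Among the heat shock genes, 11 of 12 were lower with FFA in Caco-2 co-culture at an unadjusted p under 0.05, against 2.42% of all genes, and in mono-culture 0 were, while the averaged comparison had HSPA8, a constitutive HSP70, at −0.50 (SE 0.10; adjusted p = 0.479, limma). In HepG2 no gene of the pathway lists was called in any comparison by limma. Of the hepatocyte-type genes, AHSG was called higher with FFA averaged over culture, at 0.41 (SE 0.05; adjusted p = 0.0372, limma), where 0.0554% of genes were called higher. Of the 19 other early-response genes tested there, 2 were higher in the averaged co-culture comparison at an unadjusted p under 0.05, against 3.87% of all genes. With FFA 5 were higher, against 6.76%, and 1 was lower, against 7.06%. The smallest p-values there included NFKBIA, the NF-kappaB inhibitor, at 1.43 for co-culture (adjusted p = 0.489, limma), and CCN2, a matricellular growth factor gene, at 2.07 for FFA (adjusted p = 0.192, limma).

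Between the lines, 17.9% of all genes were called lower in HepG2 and 12.5% higher. Of 24 other early-response genes, 22 were tested, of which 12 were lower and 1 was higher. PPP1R15A, which restarts translation after stress, ranged from 161 to 341 CPM in Caco-2 and from 20.9 to 80.6 CPM in HepG2, a difference of −2.81 (SE 0.16; adjusted p = 7.48e-09, limma). The difference was −3.17 for ZFP36, which destabilises short-lived mRNA, −3.53 for GADD45B and 1.90 for RHOB. Of 19 other early-response factors, 14 were tested, of which 5 were lower, NR4A1 among them at −3.22 (SE 0.53), and MYC was higher. MYC ranged from 54.3 to 143 CPM in HepG2 and from 3.70 to 22.5 CPM in Caco-2, a difference of 2.36 (SE 0.26; adjusted p = 7.81e-06, limma).

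Of the 12 other AP-1 dimer genes, 9 were tested, of which MAF, FOSL1, MAFF, FOSL2 and JDP2 were called lower in HepG2 and ATF2 higher. FOSL2 had 9 and JDP2 6 reads in Caco-2 and both had 0 in HepG2. They entered the test through Caco-2 alone and could only be lower in HepG2, so their calls are descriptions. Of 9 EGF receptor and ligand genes, 6 were tested. AREG, EREG, HBEGF and ERBB2 were lower and EGFR, the receptor itself, was higher by 1.73 (SE 0.51; adjusted p = 0.0197, limma). EGFR had 13 reads in HepG2, with levels of 0.98 to 40.3 CPM, and 4 reads in Caco-2. It was not called in mono-culture control. The difference of AREG was −2.93 (SE 0.20), and EREG had 63 reads in Caco-2 and none in HepG2. Of 13 MAP kinase feedback genes, 12 were tested, of which SPRED2, DUSP4 and DUSP10 were lower and DUSP6 was higher. DUSP4 had 5 reads in Caco-2 and 0 in HepG2, and DUSP10 had 6 and 1. Both entered the test through Caco-2 alone, so their calls are descriptions too. Of 22 upstream factors and kinases, 19 were tested, of which ATF1 and MRTFB were lower, a smaller share than over all genes. Of the 12 heat shock genes, all tested, 8 were lower and HSPE1, HSPD1 and HSP90AB1 were higher. The averaged FFA effect of HSPA8 was 1.21 (SE 0.20) higher in HepG2 than in Caco-2 (adjusted p = 0.0462, limma), where 0.0570% of genes were called higher.

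Within Caco-2 the members did not all move together. Over the 8 libraries the Pearson correlation of log2(CPM + 1) was 0.85 between FOS and IER2, 0.66 between FOS and JUNB, 0.48 between FOS and JUN and −0.65 between FOS and IER3. In HepG2 it was 0.82 between FOS and JUN and 0.37 between FOS and IER3. These are descriptions of 8 libraries that share culture, treatment and depth. Where a gene averaged 50 CPM or more, the profile most like the mean of the members in Caco-2 was that of PDCD4, a translation inhibitor gene, with r = 0.97 over 8 libraries and 1920 genes compared. PDCD4 read 66.5 to 90.4 CPM in co-culture and 32.9 to 62.7 CPM in mono-culture. MTIF3, AC078927.1, CEBPZOS and RFC4 followed with r = 0.95 each. In HepG2 the closest of 2028 genes were MRPS9, TRAPPC1, CYB5B and GPRC5C with r = 0.96 each and CLU with r = 0.95. There the mean profile of the members was high in 1 library, co-culture FFA replicate 2, at 2.60 above the line mean, with the other 7 between −1.03 and 0.20.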

How the data were processed

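Poly(A) RNA of Caco-2 and HepG2 cells was sequenced as barcoded PCR-cDNA on Nanopore, with 2 libraries per group; groups and replicate numbers were taken from the labels. The submitters' processing notes name minimap2 2.22 and GRCh38; the methods of the study name STAR and RSEM for TPM, without saying whether that holds for its short reads or these Nanopore reads, so the counter of these files and its use of strand are not given in the sources used here. The authors deposited 1 value per gene and library, in files named for TPM, which were whole multiples of 1 read whatever the length of the gene and summed to the same total in each library, so the deposited values were used as CPM, counts scaled to a common total. Whole reads were recovered for 99.3 to 100% of the values of a library, within 0.05 reads. Intervals cover counting error only, since PCR reads carry no molecular identifiers.

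Genes averaging 1 CPM or more in any group were tested on log2(CPM + 1), a scale that understates the change of low genes, with limma 3.58.1 (R 4.3.3; trended prior, Benjamini-Hochberg over all genes tested, two-sided). Each line was fitted on its 8 libraries and the lines were compared on all 16. "Called" means an adjusted p under 0.05. edgeR 4.0.16 (quasi-likelihood) and DESeq2 1.42.0 on recovered reads, other pseudocounts, filters and scalings, a replicate block and leaving out each library were alternatives. The scripts were tested on simulated data.

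The members and lists were chosen with earlier results of these data known. Members are named with a difference where the unadjusted p was under 0.05 or, in Caco-2 co-culture, where libraries did not overlap; other members that complete a family are given as values, chosen after they were seen. Pathway genes are named where called, otherwise by the smallest p. Likeness names the 5 genes with the largest r. Promoter sequences are from RefSeq on GRCh38.p14, and positions from GENCODE 44, which matched 60295 of 60623 gene identifiers.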

Additional observations from a re-analysis of the deposited data

How the results depend on the processing

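None of the 43 member differences that were recomputed changed direction under the alternatives run for it; pathway genes and the other differences were not recomputed. The thresholds that the study set across its FFA conditions, not between cultures (unadjusted p under 0.05 and 1.2-fold), gave 1 call each for FFA in Caco-2 averaged, in co-culture and in mono-culture. In HepG2 they gave 1 for FFA averaged, 2 for FFA in co-culture, 4 for co-culture averaged, 3 for co-culture with FFA, 3 among the 4 groups and 2 for the interaction. Between the lines they gave 6 in mono-culture control and 1 for the difference in FFA effect. edgeR gave 3 for the lines averaged, 3 in mono-culture control and 1 for the difference in FFA effect; DESeq2 gave 3 and 1 for the last 2. Quantile normalization left 1 member higher in all HepG2 co-culture libraries. Chosen after seeing the data, edgeR with at least 10 reads gave 5 for the lines in mono-culture control, and omitting both HepG2 co-culture FFA libraries gave 4.

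With 1 library left out, calls ran from 3 to 7 for the lines averaged, 0 to 3 for the lines in mono-culture control and 0 to 1 for the difference in FFA effect. In HepG2 they ran from 0 to 2 for FFA in co-culture, 0 to 3 for co-culture averaged, 0 to 5 for co-culture with FFA and 0 to 2 among the 4 groups. The highest of these HepG2 counts came without HepG2 co-culture FFA replicate 1. There 1 library of 49634 reads stood for that group and several members had 1 read in it, so these counts are not read as results. Members lower in all Caco-2 co-culture libraries ran from 0 to 1. With a pseudocount of 5 CPM the JUNB call between the lines was lost (−0.77, adjusted p = 0.0755, limma).

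Not every pair of same-numbered libraries deviated together, so the numbers were not taken as a pairing. Over genes of 1 CPM or more on average the mean correlation of deviations was 0.0142 (Caco-2) and 0.00866 (HepG2), with 0 of 6 pairs per line over 0.1. Over genes of 100 CPM or more it was 0.151 and 0.0529, with 4 and 3 of 6 pairs over 0.1. The replicate block brought FOSB between the lines to an adjusted p of 0.0461 (−1.54, limma) and changed no other call named here. Depth limits the HepG2 values, of which 48 of 80 rested on fewer than 3 reads.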
